A study of Mus musculus with 6 samples.

Results

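A set of 7 genes typical of Kupffer cells, other myeloid cells and platelets was followed in the livers of gigantol-dosed and vehicle-dosed mice. They were picked by symbol, as Marco, Cd300c2, Cd300ld3, Cd300e, Mpo, Ppbp and Pf4, and these 7 rows were all found among the 332 rows of the deposited table. Bulk liver RNA was sequenced from male Kunming mice, an outbred stock, 6 to 8 weeks old and weighing 20 to 28 g. The gigantol group (3 mice) had received gigantol, a plant bibenzyl described in the series title as an agonist of PPARα and PPARγ, by mouth at 10 mg/kg. The vehicle group (3 mice) had received the same volume of solvent, and all livers were taken 4 h after the dose. No genotype, transgene or second agent is given for either group. The labels give 1 liver per library and do not say whether same-numbered mice were linked. The comparison asks which transcripts of non-parenchymal and blood cells differed between livers of gigantol-dosed and vehicle-dosed mice.

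The members were chosen with this same gigantol against vehicle difference in view, and the table itself holds rows that the authors had picked on these 6 libraries (largest p 0.0499, smallest log2 fold change in size 1.00). Every value below therefore describes these livers and carries no test of its own. Values are CPM, the reads of a gene scaled to the size of its library. The steps between low CPM values put the libraries close to 21200000, 21300000 and 24600000 reads for gigantol replicates 1 to 3, and close to 26700000, 25600000 and 23100000 reads for vehicle replicates 1 to 3, and read counts given below were worked out from the same steps, so that 3 reads corresponded to 0.112 to 0.141 CPM. The titles of the samples carry the name of a human cell line, PANC1, while organism, tissue, treatment and gene IDs are those of mouse liver. Of 11 hepatocyte marker genes, G6pc and Hamp were among the rows and the other 9 were not analysed here. The sum of G6pc and Hamp reached 257 to 807 CPM in gigantol livers and 521 to 753 CPM in vehicle livers. That sum hides opposite differences, since the groups did not overlap for either gene. G6pc was at 74.6, 294 and 123 CPM in gigantol livers and 632, 443 and 425 CPM in vehicle livers. Hamp was at 183, 514 and 296 CPM in gigantol livers and 122, 88.65 and 96.4 CPM in vehicle livers. In the authors' deposited table the FDR was 0.0398 for G6pc and 0.000702 for Hamp.

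Kupffer cells are the resident macrophages of the liver. They line the sinusoids, take up particles, bacteria and aged blood cells through scavenger receptors, and meet monocytes, neutrophils and platelets that pass with the blood. CD300 proteins are paired immune receptors of myeloid cells with an immunoglobulin-like domain, some activating through adaptor proteins and others inhibitory. Platelets store chemokines in their alpha granules and release them on activation.

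Of the 7 genes, 6 had lower means in gigantol livers and 1, Cd300e, had a higher mean. In the authors' deposited table the FDR, taken over 13192 genes, was under 0.05 for 5 of the 7, all lower (Marco, Ppbp, Cd300c2, Cd300ld3 and Mpo). Of all 332 rows, 25.9% had such an FDR, 15.7% with a lower and 10.2% with a higher level in gigantol livers. The 3 gigantol livers lay wholly below the 3 vehicle livers for 5 genes, Marco, Cd300c2, Cd300ld3, Ppbp and Pf4, against 48.5% of all rows in that direction and 72.0% in either. The median log2 ratio of group means was −1.68 for the 7 genes and −1.15 for all 332 rows. Since the contrast served to choose these genes, nothing is read from those shares. In bulk tissue, fewer cells of a type and less RNA per cell cannot be told apart.

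**Figure D1:**
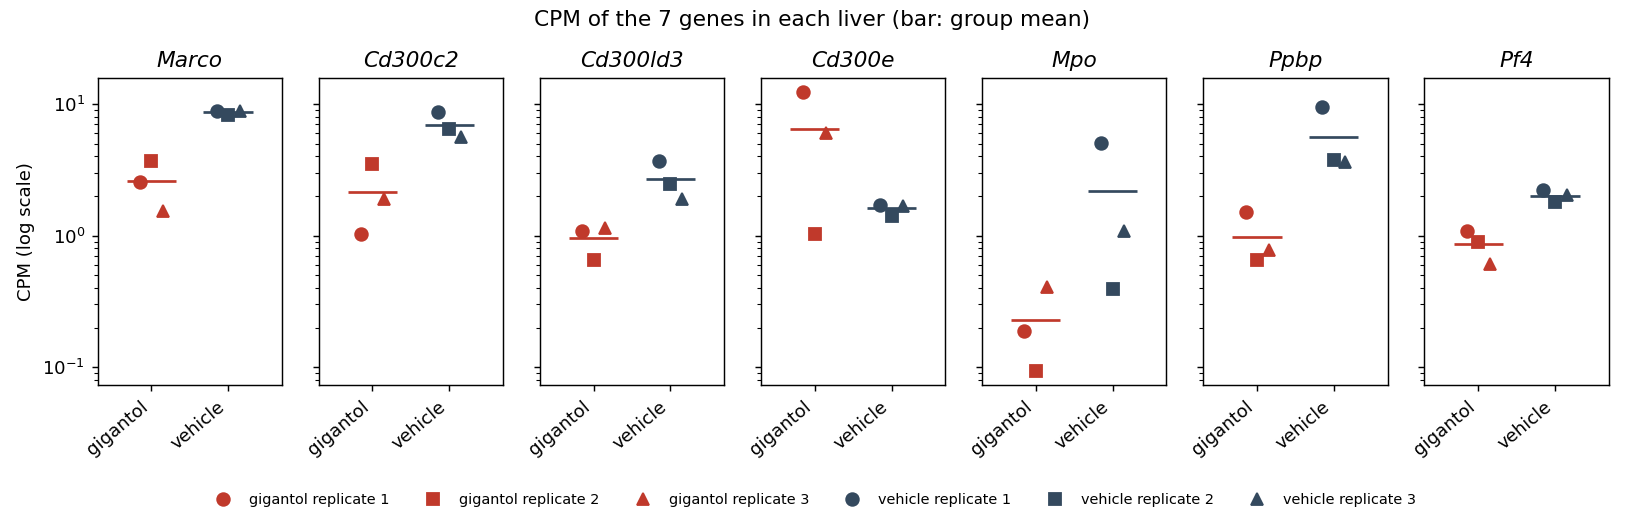
CPM of the 7 genes on a log axis, with 1 point per liver, gigantol livers at the left and vehicle livers at the right of each panel, and a bar at the group mean. The groups are separated for Marco, Cd300c2, Cd300ld3, Ppbp and Pf4, while gigantol replicate 2 at 1.03 CPM lies below all vehicle livers for Cd300e and gigantol replicate 3 at 0.407 CPM lies just above the lowest vehicle liver for Mpo.

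Marco encodes a class A scavenger receptor with a collagen-like domain that binds bacteria and particles, and in liver it marks Kupffer cells. It read 2.54, 3.71 and 1.55 CPM in gigantol replicates 1 to 3, against 8.76, 8.21 and 8.89 CPM in vehicle replicates 1 to 3. The vehicle livers were nearly level and every gigantol liver was below them, the lowest vehicle liver being 2.21 times the highest gigantol liver. The means were 2.60 ± 1.08 CPM in gigantol livers and 8.62 ± 0.360 CPM in vehicle livers (SD, n = 3 each), a level of 30.1% of vehicle. On the log2(CPM + 1) scale, which understates changes of low genes, the difference was −1.46 ± 0.345 (SE from limma). The values rest on 38 to 79 reads per gigantol liver and 205 to 234 reads per vehicle liver. In the authors' deposited table Marco had a log2 fold change of −1.73 and an FDR of 0.000107, rank 18 of the rows by p. Marco (ENSMUSG00000026390) is placed there on chromosome 1 from 120402267 to 120432753, minus strand, on a mouse build that the sources used here do not name.

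Marco was the single gene of the 22-gene Kupffer list among the rows. The other 21, including Clec4f, Timd4, Vsig4, Cd5l, Adgre1 and the C1q genes, were not analysed here, so the level of Kupffer cell transcripts as a group is not known from these data. Of 15 scavenger receptor genes, Marco, Scara5 and Cd36 were listed. Scara5, a ferritin receptor of the same class as Marco, was at 18.2, 26.3 and 19.2 CPM in gigantol livers and 17.5, 4.15 and 3.90 CPM in vehicle livers. Cd36, a class B scavenger receptor and fatty acid transporter, was at 11.3, 18.1 and 12.9 CPM in gigantol livers and 47.8, 25.7 and 19.7 CPM in vehicle livers. Marco and Cd36 were thus lower and Scara5 higher in every gigantol liver than in any vehicle liver, with FDRs of 0.112 for Cd36 and 0.360 for Scara5 in the authors' deposited table.

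Of the members, 3 belong to the CD300 family, whose genes lie together on chromosome 11. In the order of the table, on its unnamed build and all on the minus strand, Cd300c2 (ENSMUSG00000044811) spans 114887547 to 114892706, Cd300ld3 (ENSMUSG00000069607) 114932957 to 114939235 and Cd300e (ENSMUSG00000048498) 114942743 to 114953003. Cd300ld3 and Cd300e are separated by 3507 bases. RefSeq's GRCm38.p6 annotation places Cd300ld4, Cd300ld2 and Cd300ld5 between Cd300c2 and Cd300ld3, and neither these nor the other 6 of the 12 CD300 genes looked for were analysed here.

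The 250 bases before the RefSeq start of Cd300ld3 and Cd300e are shown because the group means of these neighbours differed in opposite directions. The groups overlapped for Cd300e. They are read 5′ to 3′ on the minus strand of GRCm38.p6, at chr11:115048331-115048580 for Cd300ld3 and chr11:115062040-115062289 for Cd300e. Capitals mark GGAAGT, which extends the GGAA core of sites for ETS factors such as PU.1. They also mark AGATAA, known from sites of erythroid and megakaryocyte factors. Each was searched on both strands.
Cd300ld3: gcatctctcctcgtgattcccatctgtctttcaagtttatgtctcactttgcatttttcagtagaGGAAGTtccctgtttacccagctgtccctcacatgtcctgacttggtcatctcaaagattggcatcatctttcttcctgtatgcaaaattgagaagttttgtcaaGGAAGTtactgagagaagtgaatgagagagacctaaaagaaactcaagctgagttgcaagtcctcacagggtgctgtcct
Cd300e: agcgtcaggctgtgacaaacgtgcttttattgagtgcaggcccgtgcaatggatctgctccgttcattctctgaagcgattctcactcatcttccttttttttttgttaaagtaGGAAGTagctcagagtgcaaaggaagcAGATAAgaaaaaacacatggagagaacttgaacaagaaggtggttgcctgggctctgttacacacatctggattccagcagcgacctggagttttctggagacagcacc
GGAAGT occurs 2 times before Cd300ld3, from 185 and 80 bases before the start, and 1 time before Cd300e, from 136 bases. AGATAA occurs before Cd300e from 109 bases and not in the Cd300ld3 window. The window of Cd300c2, whose mean was lower in gigantol livers, also held AGATAA, from 203 bases, and GGAAGT, from 25 bases. AGATAA thus did not separate the CD300 member with the higher mean from those with lower means.

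Cd300c2 encodes an activating receptor of macrophages and other myeloid cells, also named MAIR-II. It was at 1.04, 3.52 and 1.91 CPM in gigantol livers, against 8.69, 6.45 and 5.59 CPM in vehicle livers. All gigantol livers were below all vehicle livers, and gigantol replicate 1 was the lowest. The means were 2.16 ± 1.26 CPM in gigantol livers and 6.91 ± 1.60 CPM in vehicle livers (SD, n = 3 each), or 31.2% of vehicle, and the log2(CPM + 1) difference was −1.38 ± 0.385 (SE from limma). The authors' deposited table gave a log2 fold change of −1.68 and an FDR of 0.0156. Of the 50-base stretches of its annotated transcripts, 7.16% also occur in transcripts of another gene, Cd300a, so a small part of its reads could have been shared.

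Cd300ld3, a further receptor-like member of the family, was at 1.08, 0.657 and 1.14 CPM in gigantol livers, against 3.67, 2.46 and 1.91 CPM in vehicle livers. The groups did not overlap. The means were 0.959 ± 0.263 CPM in gigantol livers and 2.68 ± 0.901 CPM in vehicle livers (SD, n = 3 each), or 35.8% of vehicle, with a log2(CPM + 1) difference of −0.89 ± 0.277 (SE from limma). In the authors' deposited table its log2 fold change was −1.48 and its FDR 0.0468. It rests on 14 to 28 reads per gigantol liver and 44 to 98 reads per vehicle liver. Its identity is uncertain at the level of reads, since 82.1% of the 50-base stretches of its transcript also occur in transcripts of Cd300ld, Cd300ld2, Cd300ld4, Cd300ld5 or Cd300lf, and the sources used here do not say how such reads were counted.

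Cd300e encodes an activating receptor that in human marks monocytes and dendritic cells. It was at 12.3, 1.03 and 6.06 CPM in gigantol livers, against 1.72, 1.41 and 1.69 CPM in vehicle livers. Gigantol replicates 1 and 3 were above every vehicle liver, whereas gigantol replicate 2 was below every one of them, so the groups overlapped. The means were 6.48 ± 5.66 CPM in gigantol livers and 1.61 ± 0.173 CPM in vehicle livers (SD, n = 3 each), a 4.03-fold ratio, and the log2(CPM + 1) difference was 1.15 ± 0.633 (SE from limma). In the authors' deposited table Cd300e had a log2 fold change of 2.02 and an FDR of 0.150, not under 0.05. Without gigantol replicate 1 the means were 3.55 CPM in gigantol livers and 1.61 CPM in vehicle livers, a 2.21-fold ratio. None of its 50-base stretches occur in another annotated gene.

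Within a liver, the ratio of Cd300e to Cd300ld3 in CPM showed how far the 2 neighbours parted. It was 11.4, 1.57 and 5.32 in gigantol livers, against 0.469, 0.571 and 0.886 in vehicle livers. Every gigantol liver had the higher ratio, gigantol replicate 2 included. Both genes were chosen on this contrast, so nothing is read from that separation. The ratio of Cd300e to Cd300c2 was 11.9, 0.293 and 3.17 in gigantol livers and 0.198, 0.218 and 0.302 in vehicle livers. Gigantol replicate 2 thus lay within the vehicle range for that ratio. The ratio of Cd300c2 to Cd300ld3 was 0.957, 5.36 and 1.68 in gigantol livers and 2.37, 2.62 and 2.93 in vehicle livers. It was nearly level in vehicle livers and spread to both sides of them in gigantol livers.

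Mpo encodes myeloperoxidase, the haem enzyme of neutrophil granules that makes hypochlorous acid and is transcribed mainly in immature myeloid cells. It was at 0.188, 0.0940 and 0.407 CPM in gigantol livers, against 5.06, 0.391 and 1.08 CPM in vehicle livers. These are 4, 2 and 10 reads in gigantol livers and 135, 10 and 25 reads in vehicle livers, so gigantol replicate 2 was under the 3-read floor. The groups overlapped at gigantol replicate 3 and vehicle replicate 2, each with 10 reads. The means were 0.230 ± 0.161 CPM in gigantol livers and 2.18 ± 2.52 CPM in vehicle livers (SD, n = 3 each), and the log2(CPM + 1) difference was −1.09 ± 0.529 (SE from limma). The authors' deposited table gave a log2 fold change of −3.23 and an FDR of 0.0479. Vehicle replicate 1 decided the size: without it the means were 0.230 CPM in gigantol livers and 0.738 CPM in vehicle livers, and the vehicle mean was 3.21 times the gigantol mean, against 9.48 times with it. Without gigantol replicate 3 it was 15.4 times. Mpo (ENSMUSG00000009350) lies on chromosome 11 from 87684407 to 87695239, plus strand, on the table's build. It was the single listed gene of the 19-gene neutrophil list, and Elane, Prtn3, Ctsg, S100a8, S100a9 and the rest were not analysed here.

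Ppbp and Pf4 are CXC chemokines of platelet alpha granules. Ppbp encodes pro-platelet basic protein, cleaved to the neutrophil attractant CXCL7, and Pf4 encodes platelet factor 4 or CXCL4, which binds heparin. The genes are neighbours on the plus strand of chromosome 5. On the table's build Ppbp (ENSMUSG00000029372) spans 90916377 to 90917922 and Pf4 (ENSMUSG00000029373) 90920294 to 90921242, leaving 2371 bases between them.

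Their 250 bases before the RefSeq start are shown because the 2 neighbours were lower together. They are on the plus strand of GRCm38.p6 at chr5:90768268-90768517 for Ppbp and chr5:90772185-90772434 for Pf4. Capitals mark GGAAGT where it lies on the other strand, and the TATA box letters TATAAA, searched on both strands.
Ppbp: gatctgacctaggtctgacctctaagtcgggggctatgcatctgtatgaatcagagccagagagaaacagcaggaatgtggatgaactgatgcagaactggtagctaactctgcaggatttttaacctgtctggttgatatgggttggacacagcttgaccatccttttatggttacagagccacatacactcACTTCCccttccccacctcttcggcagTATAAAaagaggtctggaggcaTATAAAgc
Pf4: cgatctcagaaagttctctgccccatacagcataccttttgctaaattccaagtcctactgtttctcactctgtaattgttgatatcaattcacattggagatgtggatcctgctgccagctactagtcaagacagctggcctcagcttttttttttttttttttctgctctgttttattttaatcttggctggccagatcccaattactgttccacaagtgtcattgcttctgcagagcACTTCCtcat
GGAAGT lies on the other strand from 57 bases before the start of Ppbp and from 10 bases before that of Pf4. TATAAA occurs before Ppbp from 30 and from 8 bases and not in the Pf4 window. Over all 7 genes, 6 of 7 windows held GGAAGT on either strand, the exception being Marco, against 19.7% of 32851 windows of the same 250 bases in the RefSeq promoter table. AGATAA was in 2 of 7 windows, those of Cd300c2 and Cd300e, against 9.99% of all, and TATAAA in 1 of 7 against 12.4%. The motifs were chosen after the sequences had been seen, and the 3 do not overlap one another in these windows. A match of letters is a description of the window and not a site.

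Ppbp was at 1.51, 0.657 and 0.772 CPM in gigantol livers, against 9.44, 3.75 and 3.64 CPM in vehicle livers. All gigantol livers were below all vehicle livers, and vehicle replicate 1 was far above the others. The means were 0.979 ± 0.461 CPM in gigantol livers and 5.61 ± 3.31 CPM in vehicle livers (SD, n = 3 each), or 17.4% of vehicle, with a log2(CPM + 1) difference of −1.66 ± 0.397 (SE from limma). The authors' deposited table gave a log2 fold change of −2.52 and an FDR of 0.000293, rank 23 of the rows by p. Without vehicle replicate 1 the vehicle mean was 3.70 CPM, 3.78 times the gigantol mean, against 5.73 times with it.

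Pf4 was at 1.08, 0.892 and 0.610 CPM in gigantol livers, against 2.21, 1.80 and 2.04 CPM in vehicle livers. The groups did not overlap and both were tight. The means were 0.862 ± 0.238 CPM in gigantol livers and 2.02 ± 0.206 CPM in vehicle livers (SD, n = 3 each), or 42.8% of vehicle, with a log2(CPM + 1) difference of −0.70 ± 0.225 (SE from limma). In the authors' deposited table its log2 fold change was −1.23 and its FDR 0.110, not under 0.05. It rests on 15 to 23 reads per gigantol liver and 46 to 59 reads per vehicle liver. The Ppbp to Pf4 ratio in CPM was 1.39, 0.737 and 1.27 in gigantol livers and 4.27, 2.09 and 1.79 in vehicle livers. The ratio was lower in every gigantol liver than in any vehicle liver. Ppbp and Pf4 were both chosen on this contrast, so nothing is read from their ratio.

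**Figure D2:**
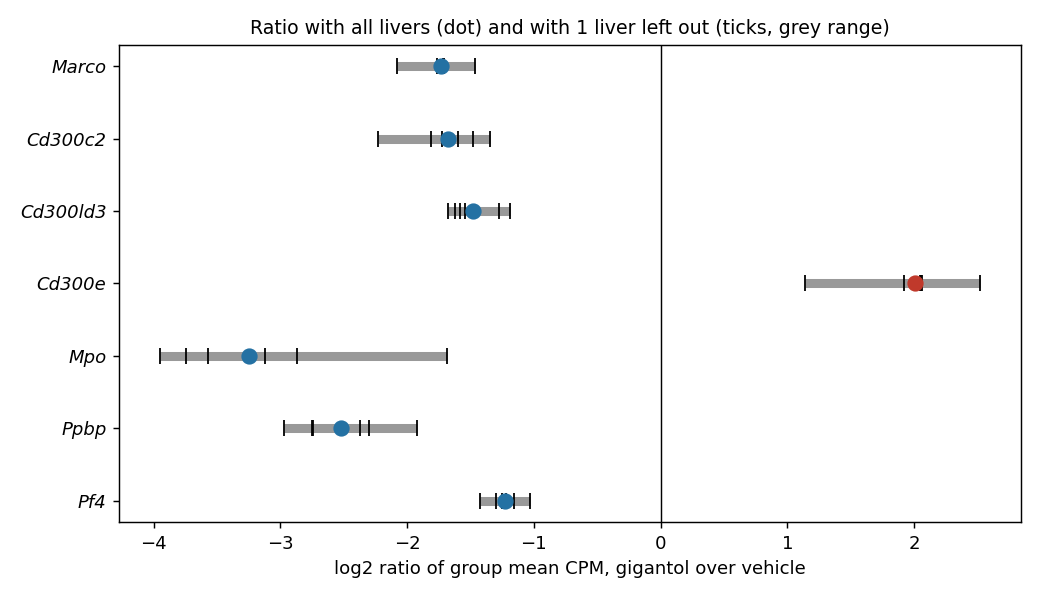
Log2 ratio of group mean CPM, gigantol over vehicle, for the 7 genes, with a dot for all 6 livers and ticks on a grey range for the 6 ratios with 1 liver left out. The range is widest for Mpo, from −3.95 to −1.68, and narrowest for Pf4, from −1.42 to −1.03.

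Levels of different genes were set against each other per kilobase of the longest transcript in GENCODE M21, on GRCm38, which all 7 genes matched by ID. In gigantol livers Cd300e was highest at 3.10 ± 2.71 CPM per kilobase, followed by Cd300c2 at 1.69 ± 0.989, Pf4 at 1.47 ± 0.405, Marco at 1.35 ± 0.562, Cd300ld3 at 1.13 ± 0.309, Ppbp at 0.904 ± 0.426 and Mpo at 0.0835 ± 0.0584 (SD, n = 3). In vehicle livers the order was Cd300c2 at 5.42 ± 1.25 CPM per kilobase, Ppbp at 5.18 ± 3.06, Marco at 4.48 ± 0.187, Pf4 at 3.43 ± 0.350, Cd300ld3 at 3.15 ± 1.06, Mpo at 0.792 ± 0.915 and Cd300e at 0.770 ± 0.0830 (SD, n = 3). In gigantol livers all neighbours down to Ppbp overlapped over the livers. In vehicle livers Marco was above Pf4 and Cd300ld3 above Mpo in every liver, and the other neighbours overlapped.

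Other platelet genes were examined beside the 2 chemokines. Of the 21 genes of the platelet and megakaryocyte list 6 were among the rows, and all 6 had every gigantol liver below every vehicle liver, against 48.5% of all rows in that direction. Their median log2 ratio was −1.68, against −1.15 for all rows, which include higher ones, and −1.41 for the 213 rows that were lower. The 6 include Ppbp and Pf4, which were chosen on this contrast, and the rows themselves were picked on these libraries. Nothing is therefore read from this count or median. Of the 6, Ppbp alone had an FDR under 0.05 in the authors' deposited table. Alox12, the platelet 12-lipoxygenase, was at 0.377, 0.141 and 0.0810 CPM in gigantol livers and 0.974, 0.860 and 0.824 CPM in vehicle livers. Rgs18, a G-protein regulator abundant in platelets, was at 0.377, 0.0940 and 0.203 CPM in gigantol livers and 1.01, 0.743 and 0.651 CPM in vehicle livers. Thbs1, thrombospondin 1 of alpha granules and other cells, was at 2.07, 0.375 and 1.59 CPM in gigantol livers and 4.76, 2.39 and 2.60 CPM in vehicle livers. Nrgn, a calmodulin-binding protein of neurons and platelets, was at 0.188, 0.282 and 0.122 CPM in gigantol livers and 0.824, 0.313 and 0.564 CPM in vehicle livers. In the authors' deposited table the FDR was 0.107 for Alox12, 0.251 for Rgs18, 0.494 for Thbs1 and 0.588 for Nrgn. Some of these values are few reads, 2 for Alox12 in gigantol replicate 3 and for Rgs18 in gigantol replicate 2. Nrgn rested on 4, 6 and 3 reads in gigantol livers and 22, 8 and 13 in vehicle livers, so its groups were parted by few reads. The other 15 genes of the list, among them Itga2b, Gp9, Gp1ba and Tubb1, were not analysed here.

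Markers of other blood cells were also looked for. Without the 7 members, 13 of the 115 genes of 8 blood and immune cell lists were among the rows, and all 13 had lower means in gigantol livers. The groups did not overlap for 9 of the 13, and 1, the alpha globin gene Hba-a2, had an FDR under 0.05 in the authors' deposited table. By comparison, 64.2% of all rows had lower values in gigantol livers, 48.5% did not overlap and were lower, and 15.7% had an FDR under 0.05 and were lower. At 1 of 13, the share of these genes under that FDR was not above the share of all rows. With so few genes, nothing is read from that count.

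Red cell genes were 5 of 15 on their list, Hba-a1, Hba-a2, Hbb-bs, Hbb-bt and Slc4a1, and none was at 0 in any liver. Their summed level was 349, 633 and 572 CPM in gigantol livers, against 554, 1912 and 1110 CPM in vehicle livers. The groups overlapped in this sum, at vehicle replicate 1. That liver was the lowest vehicle liver for the red cell sum and the highest vehicle liver for 6 of the 7 members, all but Marco. The sum of the 4 platelet genes other than Ppbp and Pf4 was 3.01, 0.892 and 1.99 CPM in gigantol livers and 7.57, 4.30 and 4.64 CPM in vehicle livers, with vehicle replicate 1 the highest there too. Blood content of the tissue was not measured, and its part in the lower myeloid and platelet values was not tested.

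Lymphocyte genes were few among the rows. Cd79a, a B cell receptor subunit and 1 of 9 genes of the B and plasma cell list, was at 0.141 to 0.282 CPM in gigantol livers and 0.347 to 0.749 CPM in vehicle livers. Of 12 T and NK cell genes, Cd8a, Nkg7 and Ccl5 were listed, with a summed level of 1.08 to 1.46 CPM in gigantol livers and 2.43 to 3.32 CPM in vehicle livers. None of these 4 had overlapping groups, against 48.5% of all rows that were lower without overlap. Their FDRs were between 0.340 and 0.576 in the authors' deposited table. Cd79a rested on 3, 6 and 5 reads in gigantol livers and 20, 16 and 8 in vehicle livers. Cd8a rested on 2, 8 and 6 reads in gigantol livers, gigantol replicate 1 being under the 3-read floor, and 13, 21 and 20 in vehicle livers. Of the stellate cell list, Lrat and Des were 2 of 9, and their summed level was 6.81 to 11.9 CPM in gigantol livers and 13.1 to 24.5 CPM in vehicle livers. No gene of the dendritic cell, sinusoidal endothelium and cholangiocyte lists, or of the adaptors and kinases through which activating CD300 receptors signal, was analysed here. The part of these other cell types in the members' values was not tested.

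**Figure D3:**
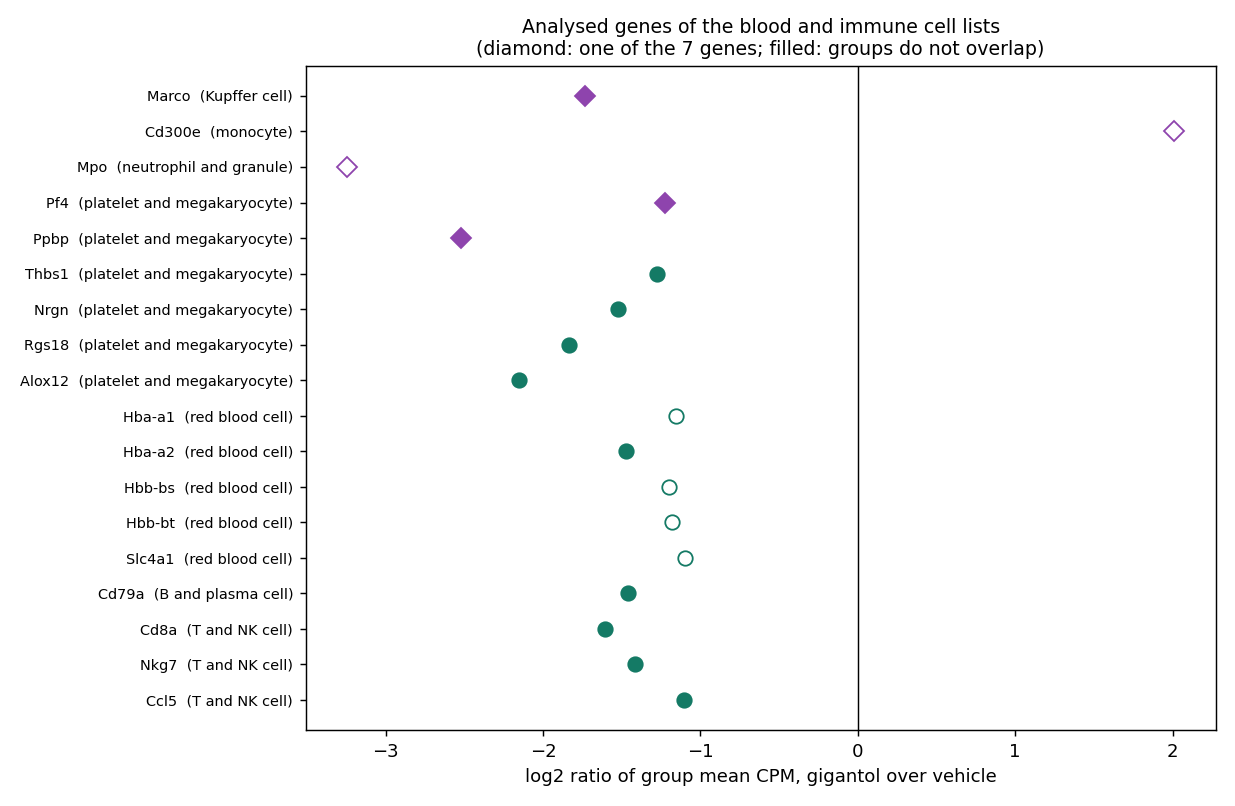
Log2 ratio of group mean CPM, gigantol over vehicle, for the 18 analysed genes of the blood and immune cell lists, with the cell type in brackets, diamonds for members and circles for other genes, and filled symbols where the livers of the groups do not overlap. All but Cd300e lie below 0, and open symbols mark Cd300e, Mpo and 4 red cell genes, Hba-a1, Hbb-bs, Hbb-bt and Slc4a1.

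Among chemokines and their receptors, 4 of 33 genes were listed, Ppbp, Pf4, Ccl5 and Cxcl1. Cxcl1, a neutrophil attractant, lies 117857 bases from Pf4 in the same chromosome 5 cluster. It was at 14.8, 11.0 and 75.2 CPM in gigantol livers, against 13.1, 7.12 and 8.50 CPM in vehicle livers. The gigantol mean rested on replicate 3, the groups overlapped, and its FDR in the authors' deposited table was 0.565. Ccl5, a chemokine of T and NK cells and of platelets, was at 1.04, 0.422 and 0.610 CPM in gigantol livers and 1.16, 1.68 and 1.61 CPM in vehicle livers.

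The livers differed in which members were high. Among vehicle livers, replicate 1 was the highest for 6 of the 7 members, while over all 332 rows it was the highest of its group in 39.2% and the lowest in 46.4%. Among gigantol livers, replicate 2 was the lowest for Mpo, Cd300ld3, Cd300e and Ppbp and the highest for Marco and Cd300c2. Replicate 1 was the highest for Cd300e, Ppbp and Pf4 and the lowest for Cd300c2. Gigantol replicate 2 was nevertheless below every vehicle liver for all 7 members, Cd300e included.

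The annotation deposited with the table shows what else the members share. All 7 carried GO terms, as did 240 of the rows. Marco, Cd300c2, Cd300ld3 and Cd300e were annotated to immune system process, as were 6.25% of the annotated rows, and to plasma membrane, as were 26.3%. Mpo, Ppbp and Pf4 were annotated to defense response, with 5 such rows in the table, and to extracellular space, with 19.2% of the annotated rows. The 3 CD300 members shared transmembrane signaling receptor activity, with 4 such rows in the table. Most terms shared by 2 members joined Ppbp with Pf4, chemokine activity among them. Of the others, lysosome joined Mpo with Cd300ld3, cytoplasm joined Pf4 with Marco, heparin binding joined Mpo with Pf4 and protein binding joined Cd300c2 with Cd300ld3. No term was shared by more than 4 members.

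For each member, the rows of similar level with the closest profile over the 6 livers were found by the root mean square difference of centred log2(CPM + 1) values, a description of these livers without a test. Marco and Cd300c2 were both closest to Gbp11, an interferon-inducible guanylate-binding protein, at 0.150 and 0.281 log2 units, and Cd300c2 was nearly as close to Stap1, a signalling adaptor, at 0.284. Gbp11 was at 1.65, 2.30 and 1.38 CPM in gigantol livers and 6.44, 5.83 and 5.68 CPM in vehicle livers. Cd300ld3 was closest to the cation channel gene Trpm4 at 0.108, and Ppbp to Nupr1, a stress-inducible transcription regulator, at 0.298. Pf4 was closest to Adamts5, an extracellular protease, at 0.0900, then Tmem26, and then Lst1, a leukocyte transcript, at 0.146.

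The remaining members had looser neighbours or rested on 1 liver. Mpo was closest to Gm6166 at 0.208, then to Bmper at 0.279 and Kcnt2 at 0.307, and all 3 shared its high value in vehicle replicate 1. Cd300e was closest to Gm5834 at 0.387, then to Dact1, an inhibitor of Wnt signalling, at 0.454, and then to the endothelial lipase gene Lipg. Gm5834 was at 31.1, 2.53 and 7.32 CPM in gigantol livers and 2.81, 1.96 and 2.00 CPM in vehicle livers. Within the members, Cd300ld3 and Pf4 had the closest profiles (0.267), followed by Marco and Cd300c2 (0.343), while Ppbp and Pf4 differed by 0.602. Cd300e was at least 1.21 from each of the others.

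**Figure D4:**
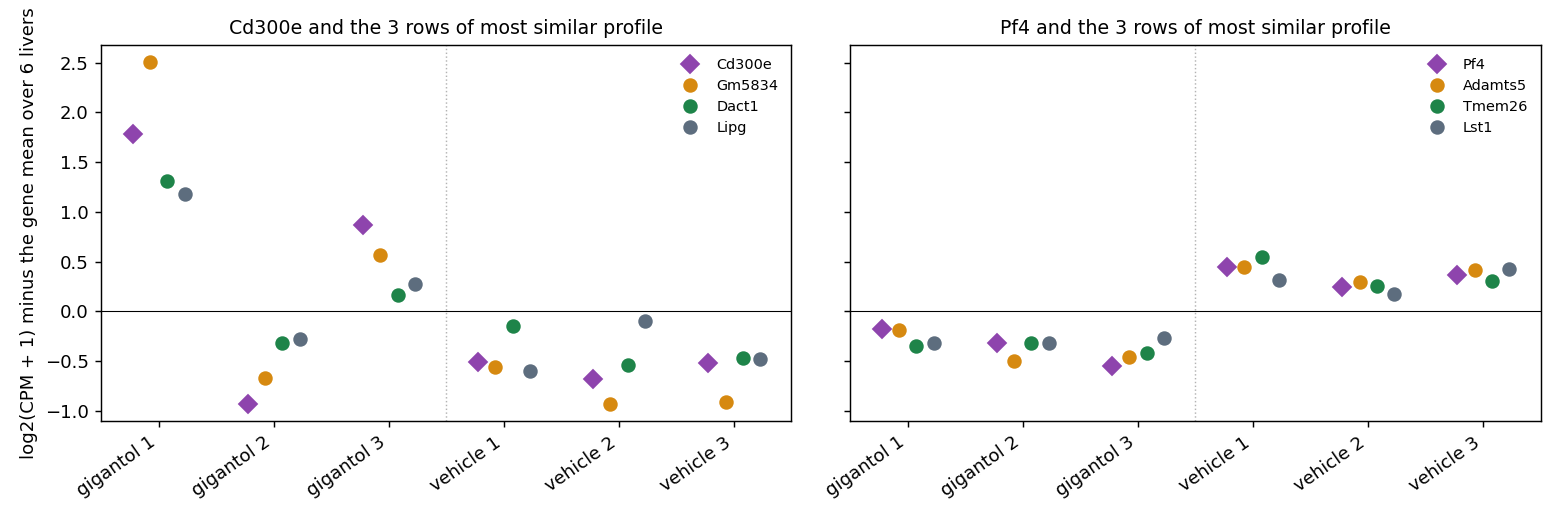
Log2(CPM + 1) of Cd300e (left) and Pf4 (right) in each liver, minus the gene's mean over the 6 livers, with the 3 rows of closest profile in other colours. Cd300e and its 3 rows are highest in gigantol replicate 1, while Pf4 and its 3 rows lie below their means in all gigantol livers and above them in all vehicle livers.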

How the data were processed

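Livers of 3 gigantol-dosed and 3 vehicle-dosed mice were grouped by the treatment label. Per the labels' protocols, RNA was depleted of ribosomal RNA and stranded libraries were made. The submitters' processing notes list HISAT2, fastp and DESeq2 1.16.1 without their roles, and name a human build (GRCh38) although all IDs are mouse. The mouse build, the annotation and the read counter were not stated. The authors deposited CPM per liver. The unit was read from the values: all values up to 200 reads were whole multiples of 1 step per library, within 0.1 reads. The authors also deposited log2 fold changes (gigantol over vehicle), p-values and FDRs of their own comparison, per the file headers. No count test was run, because so short a table holds too few very low values in the 3 vehicle libraries to meet the criterion set for recovering counts from CPM, so the planned count alternatives were left out.

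Group means, SDs and log2 ratios of mean CPM were computed. limma 3.58.1 (R 4.3.3) was fitted to log2(CPM + 1) of all 332 rows, with trended, robust variance moderation and no filter on low values, and was checked on simulated data. Its two-sided p-values were adjusted by Benjamini-Hochberg over the table at 0.05, which is circular in preselected rows, and they are used for no member. Of the 7 members 6 had at least 1 CPM in at least 3 livers. The members and gene lists were chosen with earlier results of these data known. Named genes were the members, analysed genes of lists that hold a member, further analysed marker genes, and 3 rows of closest profile per member among rows of 0.5 to 2 times its mean. Some genes of the red cell list are not reported here and were left out of its counts and sums. Read floors cover counting error only.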

Additional observations from a re-analysis of the deposited data

How the results depend on the processing

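For the 5 members whose groups do not overlap, no median and no left-out liver can turn the direction, so those values say nothing of stability. For Mpo and Cd300e, whose groups overlap, the direction was kept in all 18 alternative values, 9 per gene (2 pseudocounts, medians, each liver left out), and 2 of the 18, both for Mpo, moved by more than the spread within groups. The replicate block leaves a member's log2(CPM + 1) difference as it is. limma passed 169 of the 332 rows, 153 and 170 with pseudocounts of 0.1 and 0.5, and 111 of 201 rows with at least 1 CPM in at least 3 livers. With 1 liver left out it passed 20 to 218 rows: leaving out gigantol replicates 1, 2 and 3 gave 37, 156 and 39, and leaving out vehicle replicates 1, 2 and 3 gave 218, 21 and 20. The cause of these differences was not tested. With the replicate number as a block it passed 106. The numbers were not taken to pair the livers, since the deviations of same-numbered livers correlated at 0.0996, 0.0936 and −0.0734 over the rows and 3 of the 6 livers correlated best with their own number. The cause of the lower block count was not tested. The edgeR and DESeq2 alternatives were not run. Depth limits Mpo most, with 2 to 10 reads per gigantol liver.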
